A study of Mus musculus with 24 samples.

Results

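This section describes the change in colonic gene expression between male mice fed a high-fat diet (HFD) and male mice fed a low-fat diet (LFD). It rests on the 8 male arrays of the 24 in the series, 4 of M + HFD and 4 of M + LFD, chosen by the sex and diet in the sample labels, and covers all genes on them. The males were C57BL/6J mice that had sham surgery and were 7 weeks old at purchase. In both groups a single injection of azoxymethane (AOM, 10 mg/kg), a carcinogen that alkylates DNA, was followed by 3 cycles of 1.5% dextran sulfate sodium (DSS) in the drinking water, which damages the colonic epithelium and inflames it. M + LFD received 10% and M + HFD 45% of their energy as fat for 14 weeks, and tissue was taken 75 days after AOM. The arrays therefore compare 2 diets in mice that were all on a carcinogen and colitis protocol, and no untreated mice were among them. By the methods the RNA came from what remained of the distal colon after other uses, which position genes on 2 arrays go against, and what share of it was tumor is not given in the sources used here. The methods name 5 animals a group for this experiment, picked for a body weight near the group average, and the labels name 4, with 1 array each.

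The colonic lining is renewed from stem cells at the crypt base. Absorptive colonocytes take up salt, water and short-chain fatty acids and inactivate foreign compounds, goblet cells secrete mucus, and enteroendocrine cells release peptide hormones. Which genes an epithelial cell uses depends on where along the gut it lies, and Hox genes, transcription factors laid out along the body axis, mark that position. Interferons, made in response to infection and tissue damage, switch on a shared set of antiviral and antigen-presentation genes. After AOM and DSS this tissue also holds infiltrating immune cells and growing lesions.

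Levels are given as log2 of the quantile-normalized signal, on which a difference of 1 is a doubling, and 4 values in a row are those of replicates 1 to 4 in that order. A probe was detected on an array if the scanner software marked it well above background. Between 45.9% and 61.9% of the 56605 probes were detected on a male array, and the 75th percentile of the signal lay between 461 and 669 scanner units. Among the epithelial markers Krt8 lay between 16.71 and 16.91 and Cdh1 between 12.49 and 12.91 on the 8 arrays. Epcam lay between 12.79 and 13.59 and Vil1 between 13.70 and 14.44. Krt20 varied more, from 14.13 to 15.97, and was highest on M + LFD replicates 1 and 2. Xist was not detected on any male array, whereas the Y-linked genes Ddx3y, Kdm5d, Uty and Eif2s3y were detected on all 8. All 8 arrays lay on 1 slide, M + LFD in its first row and M + HFD in its second, so diet and row cannot be told apart. With 4 arrays a diet, their number sets the precision of what follows.

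The M + LFD arrays differed among themselves in genes that mark position along the gut. Hoxb13, the Hox gene that marks the distal colon, read 2.18, 5.04, 13.24 and 13.66 in M + LFD and 14.79, 14.32, 13.37 and 13.90 in M + HFD. It lay at 2.18 and 5.04 on M + LFD replicates 1 and 2 and at 13.24 or more on each of the other 6 male arrays, and it lay between 12.58 and 14.50 on the 16 female arrays of the series. Hoxa13 gave 2.00 and 6.15 on the same 2 arrays and 8.16 to 8.63 on the other 6. Hoxd13, also a posterior gene, read 2.07, 2.11, 5.08 and 6.46 in M + LFD and 11.38, 8.53, 5.35 and 9.49 in M + HFD, with a wide spread in both groups. The opposite was seen for Hoxb6 and Hoxb7, which are used further forward along the gut. Hoxb6 read 12.71, 11.20, 5.91 and 6.72 in M + LFD and 5.92, 4.97, 6.01 and 6.55 in M + HFD, and Hoxb7 12.11, 11.61, 6.93 and 6.68 in M + LFD and 6.52, 5.85, 6.60 and 6.67 in M + HFD. Genes of the small intestine were also seen on these 2 arrays, with Sis (sucrase-isomaltase) at 7.98 and 9.20 on M + LFD replicates 1 and 2 and at most 4.01 on the others, and Apoa4 (7.79) and Lct (lactase, 6.98) on replicate 2 alone. Over the genes tested, with 1 probe a gene, the 2 arrays correlated with each other at r = 0.981 and with the other 6 at 0.940 to 0.967. The first principal component, 37.5% of the variance, placed them at -67.0 and -71.4 and the other 6 between -0.24 and 45.5. By these genes the M + LFD group holds 2 arrays that go against the distal colon named in the methods. The DEGs named, and many of the gene lists, are therefore given with all 8 arrays and again, by value or by call, from the fit without M + LFD replicates 1 and 2, called the 6-array fit, which sets 2 arrays against 4. The arrays kept in that fit still differed in Hoxd13, at 5.08 and 6.46 in M + LFD and 5.35 to 11.38 in M + HFD. Whether they match in position was not tested. Differences of single genes from females use all arrays.

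**Figure D1:**
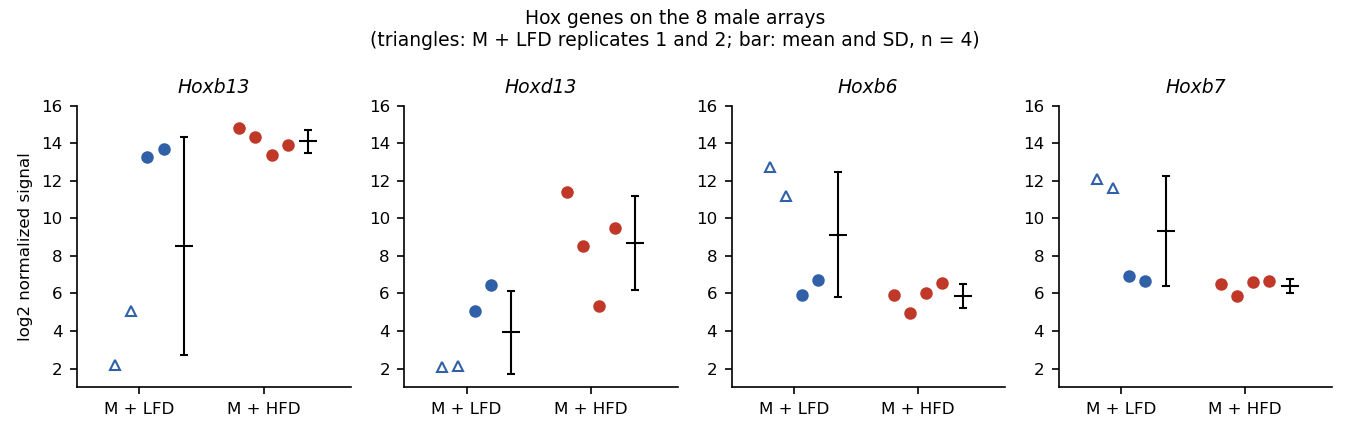
Levels of 4 Hox genes (log2 normalized signal) on each of the 8 male arrays, M + LFD in blue and M + HFD in red, with M + LFD replicates 1 and 2 as open triangles and the mean and SD of each group as a bar (n = 4). Hoxb13 lies at 2.18 and 5.04 on the triangles and at 13.24 or above on the other arrays, while Hoxb6 and Hoxb7 lie at 11.20 or above on the triangles alone.

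Of 20516 genes tested, 882 (4.3%) were differentially expressed genes (DEGs) by the study's thresholds, which ask for a 1.5-fold change and, here by limma, an unadjusted p under 0.05. In M + HFD 512 genes were up-regulated (2.5% of those tested) and 370 down-regulated (1.8%). At p under 0.05 alone there were 1251 genes, where evenly spread p-values would give 1026. After Benjamini-Hochberg adjustment limma left 0 genes at an adjusted p under 0.05, and the adjusted p of the DEGs lay between 0.291 and 0.806. The methods' t-test gave 489 DEGs and 0 genes after adjustment. No DEG passed the correction for multiple testing. Beside the DEG call, an exact p is given for single genes from a two-sided permutation of the 8 arrays, whose smallest possible value is 0.0286. Of the 120 DEGs named, 47 had that value and 73 a larger exact p, up to 0.114. Among the Hox genes Hoxd13 was at least 18.6-fold higher in M + HFD (exact p = 0.0571). It was detected on 1 M + LFD array, and where a gene was detected on 1 array of a diet group its change is given as a lower bound, with the undetected arrays at their own value or at the lowest detected signal of the array, whichever was higher. Hoxb6 (log2 fold change -3.27 ± 1.43, exact p = 0.114), Hoxb7 (log2 fold change -2.92 ± 1.24, exact p = 0.0286) and Hoxb9 (log2 fold change -0.78 ± 0.27, exact p = 0.0571) fell and gave -0.45, -0.39 and -0.39 in the 6-array fit, and none of these 4 was a DEG there.

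The 6-array fit gave 847 DEGs (4.13%), 336 in the upward direction (1.64%) and 511 downward (2.49%). The fits shared 222 DEGs, 25.2% of the 882 and 26.2% of the 847, with 128 of these up-regulated and 94 down-regulated. None of the shared genes had opposite directions, and all 882 DEGs kept their sign in the 6-array fit. That fit uses 6 of the same 8 arrays, so the shared signs are not independent. With each array left out in turn, 294 of the 882 DEGs (1.43% of genes tested) were called every time, 132 of them in the 6-array fit as well. The number of DEGs was lowest without M + HFD replicate 1 (582) and highest without M + LFD replicate 4 (1476). For 227 DEGs the 4 values of M + HFD did not overlap those of M + LFD. Over all genes tested such a gap was found for 534 (2.6%), 347 upward (1.69%) and 187 downward (0.911%).

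**Figure D2:**
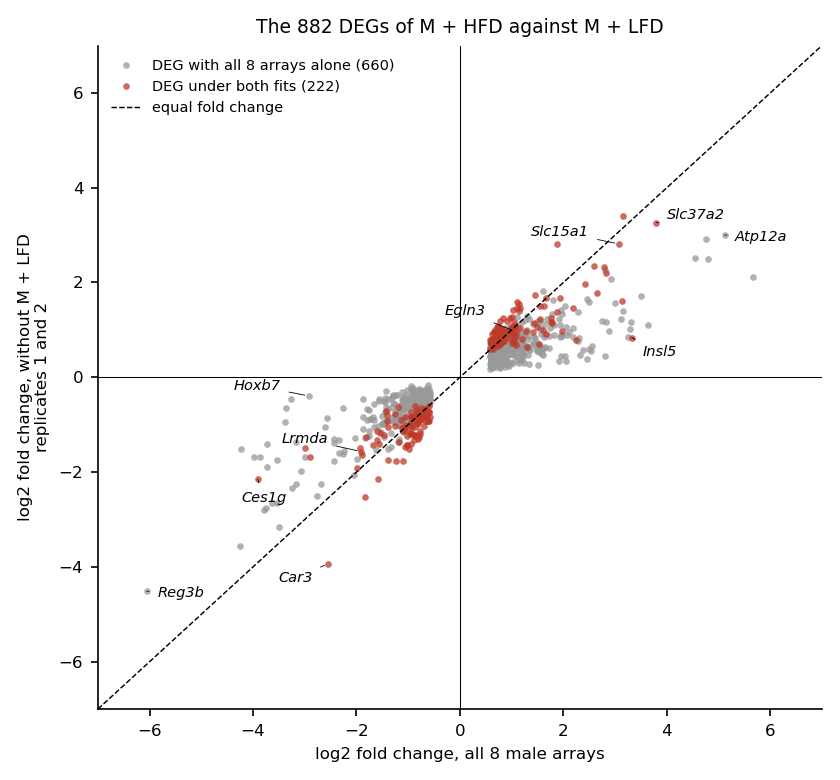
Log2 fold changes of the 882 DEGs (M + HFD over M + LFD) with all 8 male arrays (horizontal axis) and without M + LFD replicates 1 and 2 (vertical axis). The 222 DEGs called by both fits are in red, and all points lie in the quadrants of equal sign, with many of the largest changes, such as those of Reg3b and Insl5, smaller in the 6-array fit.

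Over the 47 gene lists described here 122 of 943 tested genes were DEGs (12.9%, against 4.3% of all genes), but the lists were written with earlier results known, so the share supports nothing. Genes that process drugs, esters and retinoids held some of the largest changes, in both directions. Carboxylesterases cleave ester bonds in drugs and lipids. Of 9 tested, 3 fell and 1 rose, where 1.8% of all genes tested fell and 2.5% rose, with a median log2 fold change of -0.71, against 0.01 over all genes tested, and of 0.28 in the 6-array fit. Ces1g, which hydrolyzes lipid and drug esters, read 11.86, 10.78, 6.96 and 8.65 in M + LFD and 4.79, 5.65, 6.34 and 5.85 in M + HFD. All 4 M + HFD values lay below all 4 M + LFD values (log2 fold change -3.91 ± 0.96, exact p = 0.0286). It was the carboxylesterase down-regulated in both fits (-2.15 in the 6-array fit), and its highest levels were on M + LFD replicates 1 and 2. Ces1f (log2 fold change -1.80 ± 0.56, exact p = 0.0571) and Ces1d (log2 fold change -1.45 ± 0.61, exact p = 0.114) also fell, and gave -0.91 and -0.44 without the 2 arrays, where neither was a DEG. Ces2g rose (log2 fold change 1.08 ± 0.36, exact p = 0.0571), with 6.65 and 6.54 on M + LFD replicates 1 and 2 and 7.66 to 8.74 on the other 6 arrays, and was not a DEG without the pair (0.45).

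The cytochrome P450 enzymes of the Cyp2c family, which oxidize drugs and fatty acids, split into opposite directions. Cyp2c65 read 14.73, 14.55, 10.81 and 9.30 in M + LFD and 7.15, 7.16, 11.31 and 7.86 in M + HFD (log2 fold change -3.98 ± 1.42, exact p = 0.0857), and Cyp2c66 (log2 fold change -3.73 ± 1.41, exact p = 0.0857) and Cyp2c55 (log2 fold change -3.38 ± 1.36, exact p = 0.0857) had the same pattern over the arrays. All 3 were highest on M + LFD replicates 1 and 2 and were not DEGs in the 6-array fit, where they gave -1.69, -1.41 and -0.95. Cyp2c68 (log2 fold change 1.93 ± 0.62, exact p = 0.0857) and Cyp2c40 rose. Cyp2c40 read 8.55, 7.34, 8.14 and 9.75 in M + LFD and 11.23, 9.83, 9.97 and 10.27 in M + HFD, and its groups did not overlap (log2 fold change 1.88 ± 0.51, exact p = 0.0286). It was a DEG in the 6-array fit too (1.38), and Cyp2c68 was not (1.09). Cyp2f2 read 5.26, 5.10, 7.23 and 10.15 in M + LFD and 11.72, 10.37, 8.46 and 9.83 in M + HFD, with M + LFD replicate 4 inside the M + HFD range (log2 fold change 3.16 ± 1.14, exact p = 0.0857), and was not a DEG in the 6-array fit (1.41). Cyp2d9 rose as well (log2 fold change 1.1 ± 0.47, exact p = 0.0571) and was a DEG in the 6-array fit (1.58). Members of this family have similar sequences, and how far their probes cross-hybridize was not tested. Over the 25 tested genes of the P450 and aryl hydrocarbon receptor list, which does not hold Cyp2c40, 3 rose and 3 fell. Of all genes tested 2.5% rose and 1.8% fell.

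Of 22 retinoid metabolism genes 2 rose and 1 fell, where 2.5% of all genes tested rose and 1.8% fell. Aldh1a1, which makes retinoic acid from retinal, read 14.27, 13.81, 10.84 and 10.79 in M + LFD and 9.74, 9.84, 10.97 and 10.09 in M + HFD (log2 fold change -2.27 ± 0.83, exact p = 0.0857). Adh1, an alcohol dehydrogenase that can oxidize retinol, was lowest on M + LFD replicates 1 and 2, at 11.86 and 12.73, and lay between 14.85 and 16.21 elsewhere (log2 fold change 1.96 ± 0.79, exact p = 0.0571). Both set M + LFD replicates 1 and 2 apart from the other 6 arrays, and in the 6-array fit they gave -0.66 and 0.45 and were not DEGs. Rdh16 rose (log2 fold change 1.52 ± 0.45, exact p = 0.0571) but was not a DEG in the 6-array fit (1.19). Rdh16f2, a related dehydrogenase outside the list, read 3.90, 4.07, 4.41 and 6.43 in M + LFD and 6.67, 7.10, 6.62 and 7.16 in M + HFD, without overlap (log2 fold change 2.19 ± 0.52, exact p = 0.0286), and stayed up-regulated in the 6-array fit (1.47).

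Genes of glutathione conjugation and of the oxidative stress factor Nrf2 were lower in M + HFD. Of 30 tested, 8 fell and 0 rose, 23 had a lower mean in M + HFD, and the median was -0.27 (-0.17 in the 6-array fit, where 1 fell). Nqo1, a quinone reductase, read 10.82, 9.86, 9.52 and 9.73 in M + LFD and 7.74, 8.87, 9.37 and 9.03 in M + HFD, and its groups did not overlap (log2 fold change -1.23 ± 0.40, exact p = 0.0286). Gclc and Gclm, both subunits of the enzyme that limits glutathione synthesis, fell by 0.74 and 0.65 on the log2 scale. The glutathione S-transferase genes Gsta4 (log2 fold change -0.83 ± 0.30, exact p = 0.0857), Gsta2 (log2 fold change -1.25 ± 0.47, exact p = 0.114) and Gm10639 (log2 fold change -1.20 ± 0.40, exact p = 0.0857) fell as well. In the 6-array fit the 6 genes named gave -0.87, -0.35, -0.36, -0.48, -0.79 and -0.85, and none of them was a DEG. Among the glucuronidation and sulfation enzymes 1 of 14 fell and 0 rose, Ugt1a6b (log2 fold change -1.04 ± 0.38, exact p = 0.0857), which was highest on M + LFD replicates 1 and 2 and gave -0.37 without them.

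Transporters of peptides, sugars and amino acids were higher in M + HFD. Of 23 tested, 5 rose and 0 fell, and the median was 0.12, and 0.57 in the 6-array fit with 4 up-regulated, 2 of them the same genes. Slc15a1, the proton-coupled peptide transporter, read 2.23, 4.12, 2.13 and 5.26 in M + LFD and 7.16, 6.18, 5.46 and 7.23 in M + HFD. The groups did not overlap (log2 fold change 3.07 ± 0.74, exact p = 0.0286), and it remained up-regulated in the 6-array fit (2.81). It was detected on 2 M + LFD arrays and on all 4 M + HFD arrays. Slc37a2, a sugar-phosphate exchanger, read 6.15, 3.81, 3.64 and 8.47 in M + LFD and 9.85, 9.74, 7.85 and 9.82 in M + HFD, with M + LFD replicate 4 above M + HFD replicate 3 (log2 fold change 3.80 ± 1.05, exact p = 0.0571). It too was a DEG in both fits (3.26). Its level on M + LFD replicate 3, 3.64, lay below the lowest detected signal of that array, 5.15. Slc36a1, Slc1a1 and Slc20a1, carriers of amino acids, glutamate and phosphate, rose by 1.25, 1.20 and 1.06 on the log2 scale and gave 1.22, 0.51 and 1.09 without being DEGs in the 6-array fit.

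Ion transport genes moved both ways, 4 of 33 up and 2 down, beside 2.5% up and 1.8% down among all genes tested. Atp12a, the non-gastric proton-potassium pump of the distal colon, read 2.63, 3.26, 4.63 and 9.71 in M + LFD and 10.63, 11.01, 8.21 and 10.85 in M + HFD. It was detected on 1 M + LFD array, replicate 4, which lay within the M + HFD range, and was at least 29.3-fold higher in M + HFD (exact p = 0.0571). The 6-array fit did not call it. Slc26a3, the chloride-bicarbonate exchanger of surface colonocytes, read 9.58, 9.28, 9.31 and 9.95 in M + LFD and 11.41, 10.11, 10.90 and 10.13 in M + HFD, without overlap (log2 fold change 1.1 ± 0.32, exact p = 0.0286). Scnn1a, a subunit of the epithelial sodium channel, rose (log2 fold change 0.74 ± 0.21, exact p = 0.0571), although its second probe gave 0.21. Both Slc26a3 and Scnn1a kept most of their size in the 6-array fit, 1.0 and 0.60, without passing the threshold. Best2 (log2 fold change 2.30 ± 0.79, exact p = 0.0857) and Ano1 (log2 fold change 1.54 ± 0.51, exact p = 0.0857), chloride channels found in goblet and crypt cells, were lowest on M + LFD replicates 1 and 2 and gave 0.82 and 0.66 without them. Car13, a carbonic anhydrase, fell (log2 fold change -0.71 ± 0.24, exact p = 0.0286), and gave -0.70 without being a DEG in the 6-array fit.

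Enzymes that build mucin sugar chains split between 8 up-regulated and 3 down-regulated genes of 38, with a median within 0.01 of 0 in both fits, and 2 of the 8 were up-regulated in the 6-array fit. B3gnt7, which extends keratan sulfate and related chains, read 4.34, 5.21, 9.21 and 9.87 in M + LFD and 11.16, 10.52, 9.98 and 9.93 in M + HFD. The groups did not overlap, but the level was far lower on M + LFD replicates 1 and 2 than on any other array (log2 fold change 3.24 ± 1.20, exact p = 0.0286), and gave 0.86 in the 6-array fit. St8sia5, a sialyltransferase of gangliosides, read 2.84, 2.01, 3.94 and 9.10 in M + LFD and 9.75, 10.26, 5.62 and 10.48 in M + HFD, with the 1 M + LFD array that detected it in the M + HFD range, and was at least 14.9-fold higher in M + HFD (exact p = 0.0571). B4galnt3, also detected on 1 M + LFD array, was at least 2.8-fold higher in M + HFD (exact p = 0.0571). Gcnt1, which starts core 2 branches, rose (log2 fold change 1.06 ± 0.37, exact p = 0.0571), with 1.06 in the 6-array fit, where none of these 3 was a DEG. B3gnt6, which makes the core 3 structure of colonic mucins, fell (log2 fold change -3.16) and was not a DEG in the 6-array fit. St3gal4, a sialyltransferase, was up-regulated in both fits (log2 fold change 0.92 ± 0.29, exact p = 0.0571), with 0.99 in the 6-array fit. Muc2, the main secreted mucin of the colon, read 16.98, 17.08, 17.18 and 16.89 in M + LFD and 16.08, 16.60, 16.98 and 16.69 in M + HFD. It was not a DEG (log2 fold change -0.44 ± 0.20, exact p = 0.0857), and its dimmer probe gave -1.32. Of the 20 goblet cell genes 2 rose, Ano1 and Best2, and 0 fell, with 10 higher and 10 lower.

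Among 22 tested hormone and enteroendocrine genes 3 rose and 1 fell, beside 2.5% up and 1.8% down among all genes tested. Insl5, a hormone made by L cells of the distal colon, read 6.10, 7.22, 11.46 and 11.83 in M + LFD and 12.08, 13.20, 12.34 and 12.28 in M + HFD. M + LFD replicates 1 and 2 lay at 6.10 and 7.22 and all other arrays at 11.46 or above (log2 fold change 3.33 ± 1.25, exact p = 0.0286). In the 6-array fit the gap was smaller and still a DEG (0.84). Pyy, the peptide YY hormone of the same cells, rose (log2 fold change 0.99 ± 0.36, exact p = 0.0571), and gave 0.50 in the 6-array fit. Gper1, a membrane receptor for estrogen, rose (log2 fold change 0.96 ± 0.39, exact p = 0.0857), and Pcsk1, a prohormone convertase, fell (log2 fold change -1.31 ± 0.54, exact p = 0.0857). Neither was a DEG in the 6-array fit (1.09 and -0.43). In bulk tissue, fewer cells of a type and less RNA per cell cannot be told apart.

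**Figure D3:**
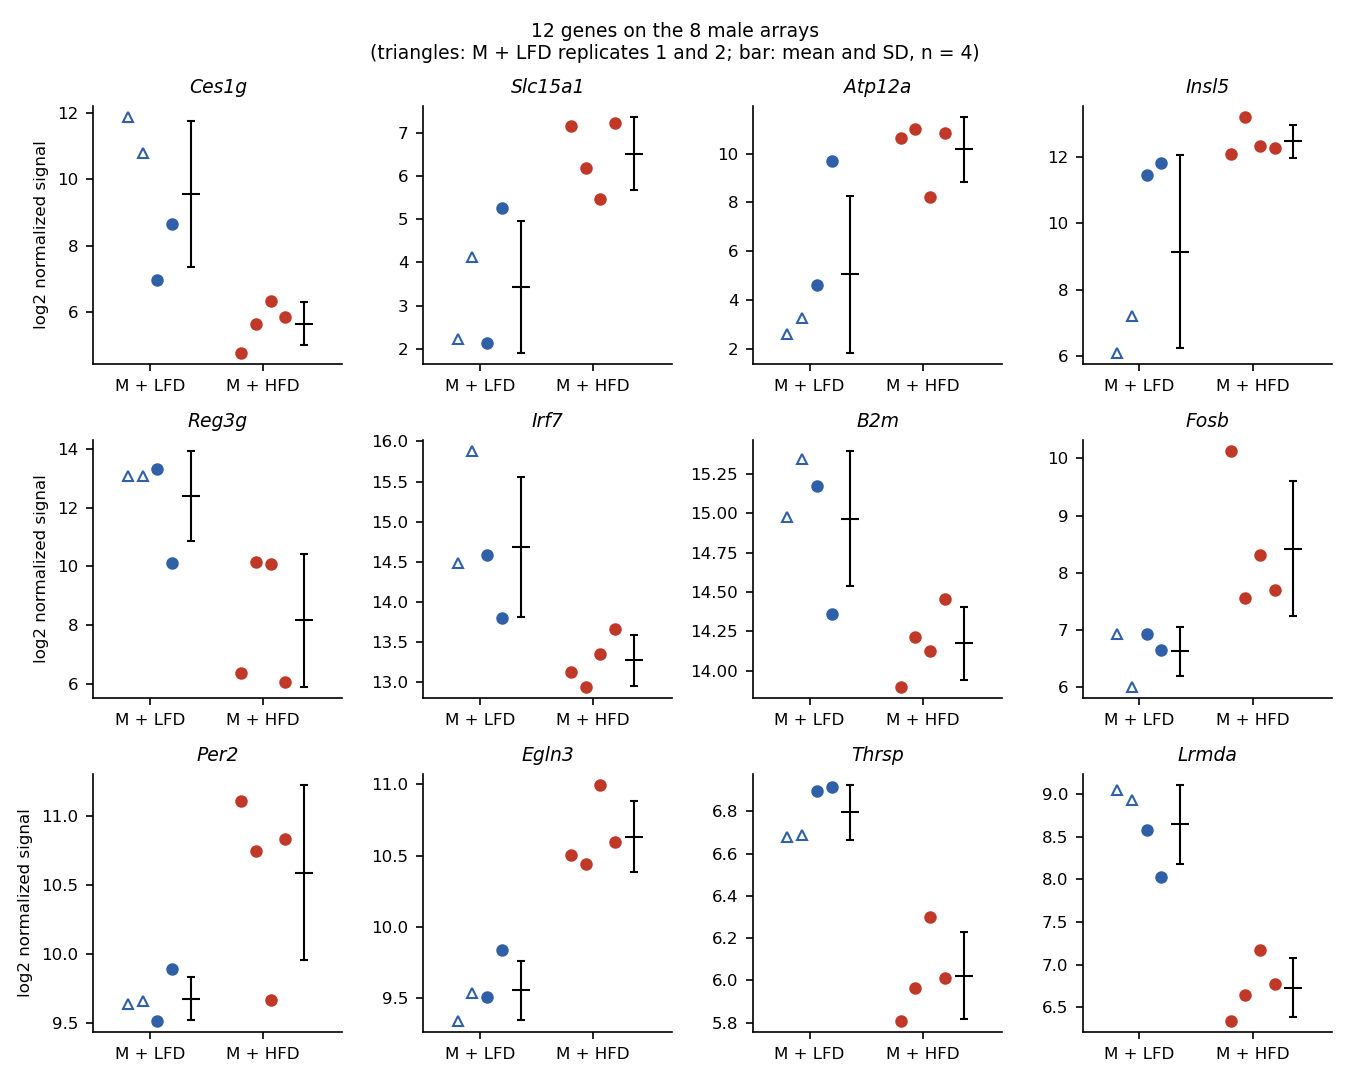
Levels of 12 genes (log2 normalized signal) on the 8 male arrays, M + LFD in blue with replicates 1 and 2 as open triangles, M + HFD in red, and the mean and SD of each group as a bar (n = 4). The M + HFD points lie all above the M + LFD points for Slc15a1, Insl5, Fosb and Egln3 and all below them for Ces1g, Irf7, Thrsp and Lrmda, and the groups overlap for Atp12a, Reg3g, B2m and Per2. Vertical axes differ between genes and do not start at 0.

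Antimicrobial proteins of the epithelium included the largest fall of the comparison among genes named here. Of 14 tested, 3 fell and 0 rose, with a median of -0.22. Reg3b, a secreted lectin that binds bacteria, read 13.66, 14.09, 13.59 and 8.0 in M + LFD and 2.19, 8.65, 9.94 and 4.37 in M + HFD, and Reg3g, its relative, 13.08, 13.10, 13.31 and 10.12 in M + LFD and 6.35, 10.16, 10.07 and 6.05 in M + HFD. On 3 of the 4 M + LFD arrays both were above 13, and on M + LFD replicate 4 and the M + HFD arrays they were at 10.16 or below. Reg3b (log2 fold change -6.05 ± 1.95, exact p = 0.0857) and Reg3g (log2 fold change -4.25 ± 1.15, exact p = 0.0571) were both DEGs. They gave -4.51 and -3.56 in the 6-array fit and were not DEGs there. Reg3b at 2.19 on M + HFD replicate 1 lay below the lowest detected signal of that array, 3.27. Mmp7, the protease that activates defensins, read 8.0, 7.54, 6.39 and 6.46 in M + LFD and 3.12, 3.58, 5.71 and 6.23 in M + HFD, without overlap (log2 fold change -2.44 ± 0.74, exact p = 0.0286), and was detected on 2 of the 4 M + HFD arrays (-1.77 in the 6-array fit). Retnlb, another secreted bactericidal protein, gave -4.28 and was not a DEG. Outside the list, Spink1, a trypsin inhibitor, went the other way, at 13.32, 13.74, 14.04 and 15.46 in M + LFD and 15.61, 15.89, 15.97 and 16.15 in M + HFD (log2 fold change 1.77 ± 0.41, exact p = 0.0286), and was up-regulated in the 6-array fit (1.16). Plet1, a surface protein of progenitor cells, read 13.36, 13.63, 13.22 and 12.69 in M + LFD and 7.64, 10.27, 12.41 and 11.51 in M + HFD (log2 fold change -2.77 ± 0.89, exact p = 0.0286), and -2.49 in the 6-array fit, not a DEG there.

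Type I interferon-stimulated genes were lower in M + HFD almost throughout. Of 37 tested, 36 had a lower mean in M + HFD, 12 fell and 0 rose, and the median was -0.95, where 48.2% of all genes tested had a lower mean. In the 6-array fit 35 were lower, 10 fell and 0 rose, and the median was -0.79. The fits shared 7 of these DEGs, among them Irf7, Lgals3bp, Oasl2 and Rtp4. Leaving out single arrays moved the median between -1.21 and -0.53. The mean level of the list lay at 10.17, 11.80, 10.99 and 9.97 on the M + LFD arrays and at 9.42, 9.55, 9.83 and 10.26 on the M + HFD arrays. M + LFD replicates 2 and 3 were thus highest, M + HFD replicate 4 was above M + LFD replicates 1 and 4, and the groups overlapped for the list as a whole.

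Irf7, the transcription factor that amplifies type I interferon, read 14.49, 15.88, 14.58 and 13.80 in M + LFD and 13.13, 12.95, 13.35 and 13.67 in M + HFD. The groups did not overlap (log2 fold change -1.41 ± 0.40, exact p = 0.0286), and it was a DEG in the 6-array fit (-0.92). Lgals3bp, a secreted glycoprotein, read 14.13, 15.20, 14.95 and 14.28 in M + LFD and 13.24, 13.60, 13.66 and 13.70 in M + HFD, also without overlap (log2 fold change -1.09 ± 0.26, exact p = 0.0286), and -1.06 in the 6-array fit. Oasl2, of the oligoadenylate synthetase family, read 12.16, 13.80, 12.94 and 11.61 in M + LFD and 10.90, 11.18, 11.37 and 11.48 in M + HFD (log2 fold change -1.40 ± 0.43, exact p = 0.0286). It stayed a DEG in the 6-array fit, at -1.04, and its lowest M + LFD value lay just above the highest M + HFD value. Helz2 fell (log2 fold change -0.61 ± 0.20, exact p = 0.0286), but its second probe gave 0.02, so its direction depends on the probe, and it was not a DEG in the 6-array fit (-0.43).

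Of the interferon-gamma-induced GTPases, which attack the vacuoles of intracellular microbes, 7 of 15 fell and 0 rose, with 14 lower and a median of -0.77. Ifi47 read 11.84, 12.78, 12.13 and 10.45 in M + LFD and 9.96, 10.68, 9.94 and 10.61 in M + HFD, with M + LFD replicate 4 inside the M + HFD range (log2 fold change -1.5 ± 0.46, exact p = 0.0857). Irgm1 (log2 fold change -0.99 ± 0.31, exact p = 0.0571), Igtp (log2 fold change -1.06 ± 0.38, exact p = 0.0571), Gbp8 (log2 fold change -0.72 ± 0.21, exact p = 0.0571) and Iigp1 (log2 fold change -1.33 ± 0.51, exact p = 0.0857) fell as well. The 6-array fit gave a median of -0.84 with all 15 lower, and 0 of them were DEGs there, with -0.99, -0.84, -1.04, -0.54 and -1.48 for the 5 named. Ifng, the gene of interferon-gamma itself, read 6.01, 6.07, 5.77 and 4.60 in M + LFD and 3.79, 4.66, 3.98 and 4.67 in M + HFD (log2 fold change -1.34 ± 0.36, exact p = 0.0857). It was detected on 4 M + LFD and 2 M + HFD arrays, and was not a DEG in the 6-array fit (-0.91).

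The MHC class I genes, which display peptides to cytotoxic T cells, followed, with 7 of 24 down-regulated, 0 up-regulated, 23 lower and a median of -0.52 (-0.34 with 2 down-regulated in the 6-array fit). B2m, the light chain of MHC class I, read 14.98, 15.35, 15.18 and 14.36 in M + LFD and 13.90, 14.22, 14.13 and 14.46 in M + HFD (log2 fold change -0.79 ± 0.23, exact p = 0.0571). H2-K1, a heavy chain, fell (log2 fold change -0.60 ± 0.21, exact p = 0.0571), and H2-T23, a non-classical one, did so without overlap (log2 fold change -0.70 ± 0.25, exact p = 0.0286). Tap1, a subunit of the peptide pump, read 9.99, 11.39, 11.07 and 9.72 in M + LFD and 9.29, 9.79, 9.25 and 9.75 in M + HFD (log2 fold change -1.02 ± 0.38, exact p = 0.0857). Nlrc5, the factor that switches on MHC class I genes, fell (log2 fold change -0.84 ± 0.31, exact p = 0.0857), and was the one of these 5 that was also a DEG in the 6-array fit (-0.97, against -0.59, -0.42, -0.33 and -0.88 for the others). H2 genes are similar in sequence, and whether their probes share signal was not tested. For MHC class II 1 of 12 fell, H2-DMa (log2 fold change -0.68 ± 0.25, exact p = 0.0857), called in both fits (-0.80 in the 6-array fit), with a median of -0.16 and of -0.51 with 4 down-regulated in the 6-array fit.

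T and NK cell genes moved beside these lists. All 20 tested had a lower mean in M + HFD, 3 fell and 0 rose, and the median was -0.56 (-0.29 in the 6-array fit). Cd3g, a chain of the T cell receptor complex, read 7.95, 8.34, 7.69 and 7.88 in M + LFD and 7.09, 7.16, 7.13 and 7.91 in M + HFD (log2 fold change -0.64 ± 0.23, exact p = 0.0857). Cd8b1, of cytotoxic T cells (log2 fold change -1.26 ± 0.47, exact p = 0.0857), and Cd6 (log2 fold change -0.65 ± 0.26, exact p = 0.114) fell, and Cd3d did not reach a fold change of 1.5, at -0.58. In the 6-array fit the 3 DEGs gave -0.46, -0.70 and -0.67 and were not called. The mean level of the 20 genes lay between 8.02 and 8.92 in M + LFD and between 7.57 and 8.05 in M + HFD. Its part in the interferon and MHC results was not tested. By the same thresholds 0 of 18 macrophage and monocyte genes, 0 of 14 B and plasma cell genes and 0 of 5 neutrophil genes were DEGs. With 4.3% of all genes tested being DEGs, these lists are too short for a count of 0 to show that they did not change. Their medians were 0.09, 0.31 and -0.13 with all 8 arrays. In the 6-array fit they were -0.20, -0.60 and -0.22.

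**Figure D4:**
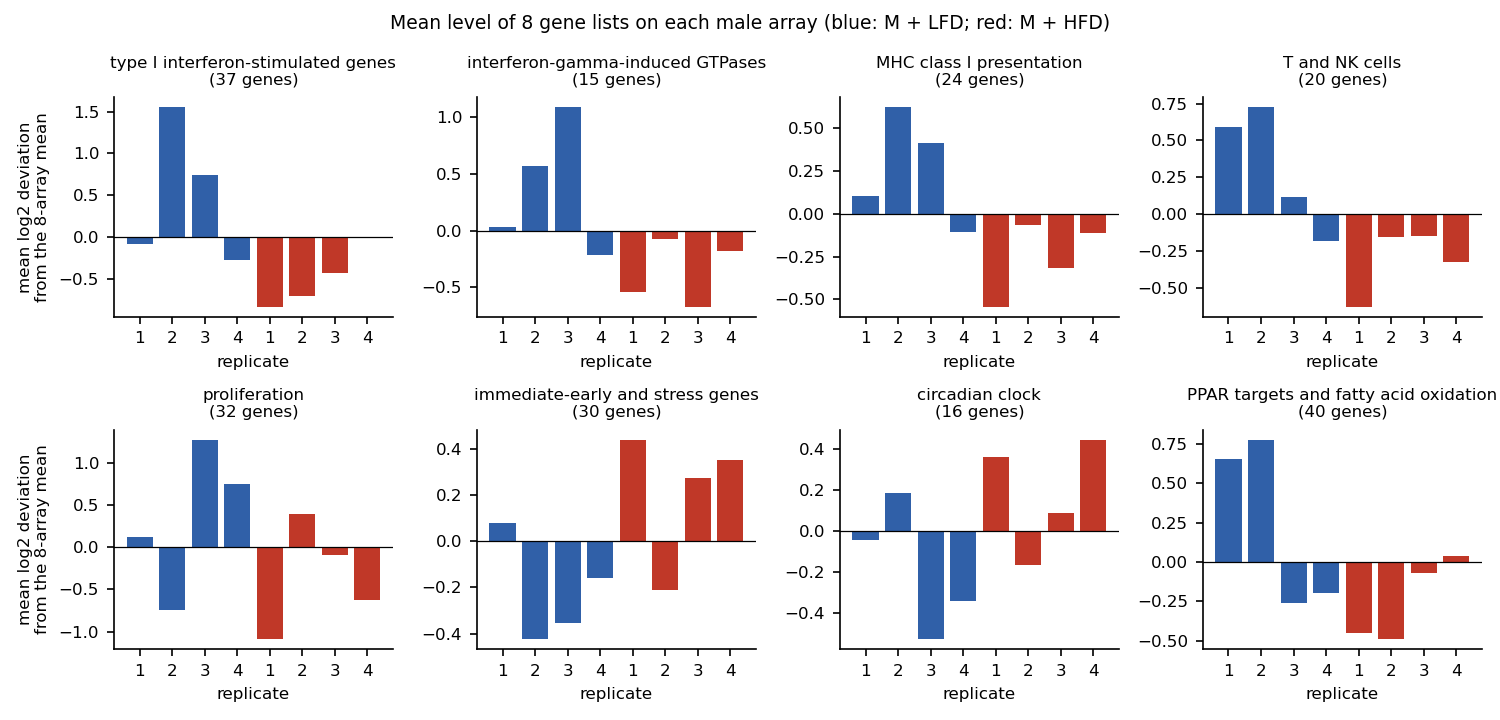
Mean level of 8 gene lists on each male array, as the mean log2 deviation of the tested genes of a list from their mean over the 8 arrays, with M + LFD in blue, M + HFD in red and the replicate number below each bar. Interferon genes are highest on M + LFD replicates 2 and 3, proliferation genes on replicates 3 and 4, and PPAR and T cell genes on replicates 1 and 2, and scales differ between panels.

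Interferon-responsive promoters often hold the core of the interferon-stimulated response element, GAAA and a second GAAA set apart by any 2 bases. Both strands of 300 bases of RefSeq sequence around each start site (250 before, 50 after, GRCm38.p6) were searched, which was possible for 26 genes of the type I list, 9 GTPases and 19 MHC class I genes. The letters were found in 14 of the 26 (53.8%), 8 of the 9 (88.9%) and 5 of the 19 (26.3%), and in 407 of 10666 tested genes with a promoter (3.82%). Among DEGs they were in 27 of 190 down-regulated (14.2%) and 3 of 237 up-regulated genes (1.27%). Of the 172 down-regulated genes on none of the 3 lists, 20 (11.6%) held them. These included Phf11a (log2 fold change -1.68 ± 0.52, exact p = 0.0286), Phf11b (log2 fold change -1.89 ± 0.52, exact p = 0.0571) and Apol9b (log2 fold change -1.6 ± 0.62, exact p = 0.0286), of the PHD finger and apolipoprotein L families, whose copies are alike in sequence. These 3 were DEGs in the 6-array fit (-1.43, -1.63 and -1.13), but most of the 20 were not, among them Cyp2c66 and Pcsk1 (-1.41 and -0.43). The 200 bases before the start of 4 down-regulated genes that hold the letters follow, 5′ to 3′ on the strand of the gene, with matches in capitals, because they show where in the promoter the match lies. Oas3, an oligoadenylate synthetase (log2 fold change -1.76, and -1.13 and no DEG in the 6-array fit), lies at chr5:120777660-120777859 on the minus strand, Igtp at chr11:58199356-58199555 on the plus strand, Irgm1 at chr11:48871421-48871620 on the minus strand and B2m at chr2:122147487-122147686 on the plus strand.
Oas3: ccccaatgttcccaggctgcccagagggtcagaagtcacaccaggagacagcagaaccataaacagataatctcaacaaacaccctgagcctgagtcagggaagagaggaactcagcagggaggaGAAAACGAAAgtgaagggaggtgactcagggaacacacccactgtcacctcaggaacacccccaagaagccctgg
Igtp: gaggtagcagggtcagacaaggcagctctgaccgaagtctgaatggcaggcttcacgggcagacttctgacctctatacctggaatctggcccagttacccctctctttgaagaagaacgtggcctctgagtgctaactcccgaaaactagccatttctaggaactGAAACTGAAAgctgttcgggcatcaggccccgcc
Irgm1: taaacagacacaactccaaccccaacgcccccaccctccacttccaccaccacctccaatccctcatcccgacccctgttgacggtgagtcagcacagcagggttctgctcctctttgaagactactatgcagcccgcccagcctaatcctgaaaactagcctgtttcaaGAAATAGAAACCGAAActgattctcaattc
B2m: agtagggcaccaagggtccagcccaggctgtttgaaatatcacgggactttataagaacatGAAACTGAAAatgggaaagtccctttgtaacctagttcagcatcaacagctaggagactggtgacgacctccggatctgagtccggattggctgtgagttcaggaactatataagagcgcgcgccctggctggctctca
The match begins 75 bases before the start in Oas3, 34 in Igtp, 30 in Irgm1, where 2 overlapping matches cover 16 bases, and 139 in B2m. None of the genes printed was a DEG in the 6-array fit. Irf7, Lgals3bp and Oasl2, which were DEGs in both fits, held no match in the 300 bases searched. Ddx58, also a DEG in both fits, held no match in the 200 bases before the start but did within the 300. A match is a description of the sequence, and no binding was measured.

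Cytokine and chemokine genes held 6 DEGs. Of 44 interleukin, TNF and receptor genes 2 rose and 2 fell, and of 23 chemokines 2 rose and 0 fell, where 4.3% of all genes tested were DEGs. Il1rn, the antagonist of the interleukin-1 receptor, read 10.99, 10.82, 10.79 and 11.16 in M + LFD and 11.80, 11.11, 11.89 and 12.25 in M + HFD (log2 fold change 0.83 ± 0.24, exact p = 0.0571), and was up-regulated in the 6-array fit too (0.79). Il18, an epithelial cytokine, rose (log2 fold change 1.6 ± 0.56, exact p = 0.0857), with 10.34 and 10.57 on M + LFD replicates 1 and 2 and 12.10 to 13.80 on the others, and Tnfsf10, the death ligand TRAIL, fell (log2 fold change -1.12 ± 0.47, exact p = 0.0857). These last 2 gave 0.59 and -0.68 in the 6-array fit and were not DEGs. Cxcl1, which attracts neutrophils (log2 fold change 1.5 ± 0.61, exact p = 0.0857), and Ccl17, which attracts T cells (log2 fold change 0.96 ± 0.42, exact p = 0.114), rose, and neither was a DEG in the 6-array fit (0.71 and 0.58). Outside both lists, Il34, a ligand of the macrophage growth factor receptor Csf1r, read 7.35, 7.95, 8.71 and 9.07 in M + LFD and 9.54, 9.78, 9.46 and 10.74 in M + HFD, without overlap (log2 fold change 1.61 ± 0.42, exact p = 0.0286), and stayed a DEG (0.99). Tnf gave -0.01 and Ccl2 0.23, and neither was a DEG, and Il6 was not detected on any male array.

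**Figure D5:**
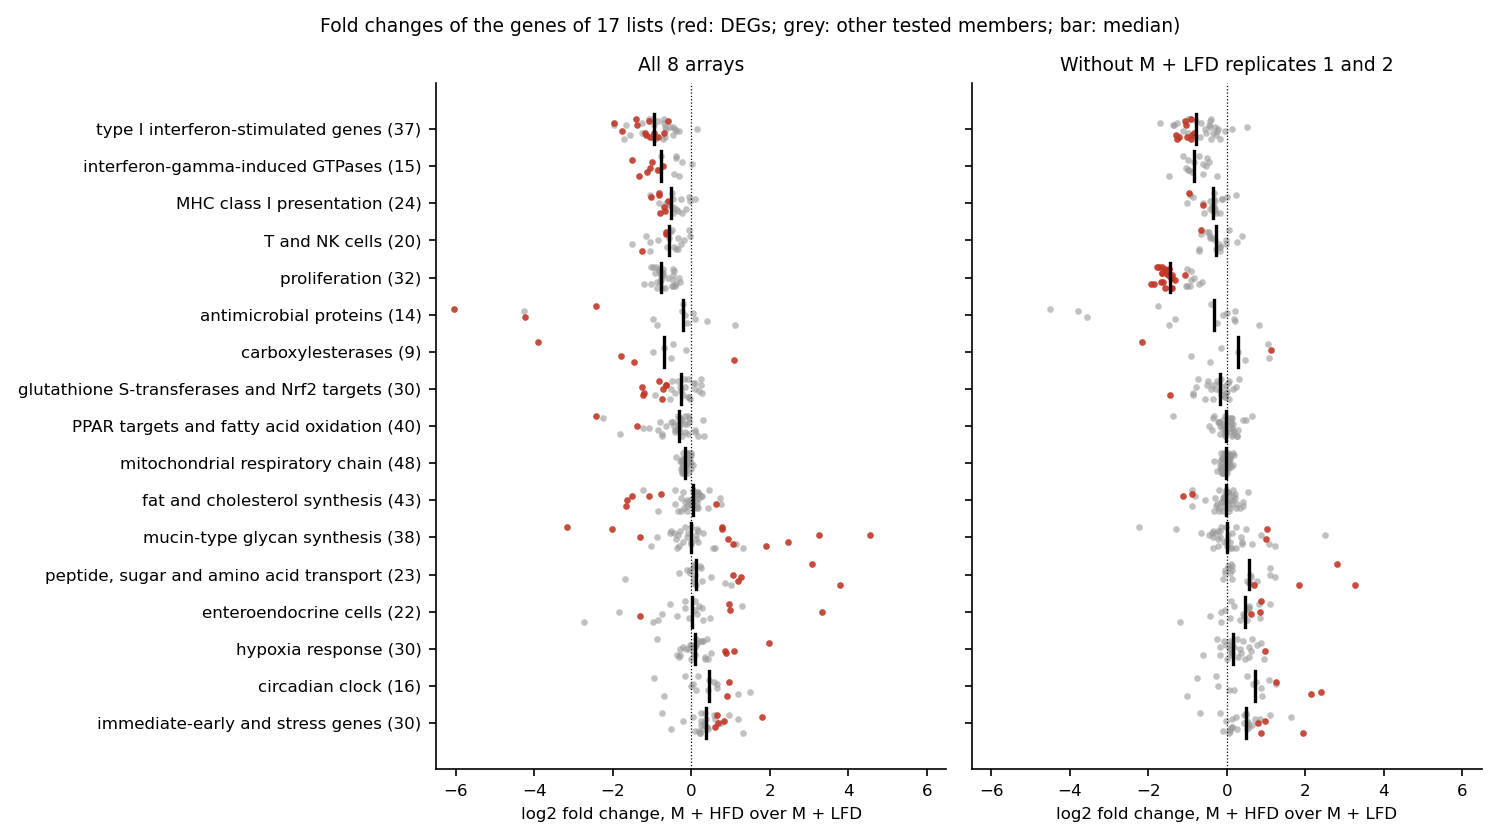
Log2 fold changes of the tested genes of 17 lists (M + HFD over M + LFD, number of genes in brackets), with all 8 arrays on the left and without M + LFD replicates 1 and 2 on the right. Red points are DEGs, grey points other members, and the bar is the median of the list, which stays below 0 for the interferon, MHC class I, T cell and proliferation lists in both panels and turns from -0.71 to 0.28 for the carboxylesterases.

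Genes that respond within minutes to a stimulus were higher in M + HFD. Of 30 immediate-early and stress genes 27 had a higher mean, 5 rose and 0 fell, with a median of 0.36, and 51.8% of all genes tested had a higher mean. The median was 0.49 in the 6-array fit, where 4 rose. The list mean lay at 10.36, 9.86, 9.93 and 10.12 in M + LFD and at 10.72, 10.07, 10.56 and 10.63 in M + HFD. The groups overlapped for the list as a whole, with M + HFD replicate 2 below M + LFD replicates 1 and 4. All 5 DEGs had groups that did not overlap. Fosb, a partner in the AP-1 transcription factor, read 6.93, 6.01, 6.92 and 6.65 in M + LFD and 10.13, 7.55, 8.31 and 7.70 in M + HFD (log2 fold change 1.79 ± 0.54, exact p = 0.0286). Ier2 read 10.61, 10.10, 10.48 and 10.45 in M + LFD and 11.23, 11.03, 10.86 and 10.96 in M + HFD (log2 fold change 0.61 ± 0.16, exact p = 0.0286), and Rhob, a small GTPase, 10.56, 10.65, 9.88 and 10.78 in M + LFD and 10.99, 11.15, 11.16 and 11.90 in M + HFD (log2 fold change 0.83 ± 0.26, exact p = 0.0286). Junb, another AP-1 partner (log2 fold change 0.66 ± 0.26, exact p = 0.0286), and Zfp36, which destabilizes cytokine mRNA (log2 fold change 0.67 ± 0.23, exact p = 0.0286), rose as well. Rhob and Zfp36 were DEGs in both fits (0.97 and 0.79 in the 6-array fit), and Fosb, Ier2 and Junb were not (1.64, 0.56 and 0.49). Fos itself gave 0.08 and Myc 0.22, and neither was a DEG. Hspb1, a small heat shock protein, was the 1 DEG of 34 heat shock and unfolded protein genes, at 11.76, 12.80, 12.59 and 12.26 in M + LFD and 13.24, 12.97, 12.85 and 13.72 in M + HFD (log2 fold change 0.84 ± 0.27, exact p = 0.0286), and was called in both fits (0.77).

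Clock genes were also more often higher than lower. Of 16 tested, 12 were higher, 2 rose and 0 fell, and the median was 0.44, and 0.71 with 3 up-regulated in the 6-array fit. The list mean lay at 9.25, 9.49, 8.77 and 8.96 in M + LFD and at 9.66, 9.13, 9.38 and 9.74 in M + HFD, so the groups overlapped. Per2, a repressor arm of the clock, read 9.63, 9.66, 9.52 and 9.89 in M + LFD and 11.11, 10.75, 9.66 and 10.83 in M + HFD, with M + HFD replicate 3 at the level of M + LFD (log2 fold change 0.91 ± 0.29, exact p = 0.0571), and was not a DEG in the 6-array fit (0.88). Bhlhe40, which represses clock genes, read 10.70, 10.30, 9.91 and 9.95 in M + LFD and 11.42, 10.27, 11.30 and 11.72 in M + HFD (log2 fold change 0.96 ± 0.33, exact p = 0.0857), and was up-regulated in both fits (1.25). Dbp (1.48) and Nr1d1 (1.19), outputs and repressors of the clock, were not DEGs with all 8 arrays and were in the 6-array fit (2.41 and 2.16). Arntl, which peaks opposite to them, gave -0.71 and was not a DEG. The hour at which each mouse was killed is not given in the sources used here.

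Of 30 hypoxia-response genes 4 rose and 0 fell, with a median of 0.10. Egln3, the prolyl hydroxylase induced by hypoxia that marks HIF-1alpha for decay, read 9.34, 9.54, 9.51 and 9.84 in M + LFD and 10.50, 10.44, 10.99 and 10.60 in M + HFD. The groups were apart by more than their spread (log2 fold change 1.08 ± 0.17, exact p = 0.0286), and the gene was a DEG in the 6-array fit (0.96) and in each of the 8 fits with 1 array left out. P4ha1, a collagen prolyl hydroxylase, read 7.19, 6.20, 7.38 and 6.95 in M + LFD and 7.39, 8.20, 7.62 and 7.89 in M + HFD (log2 fold change 0.85 ± 0.28, exact p = 0.0286). Hif1a, the factor itself, was low on M + LFD replicates 1 and 2, at 10.30 and 10.12, and 11.04 or higher elsewhere (log2 fold change 0.89 ± 0.31, exact p = 0.0857), and Nt5e, which makes adenosine, rose (log2 fold change 1.98 ± 0.69, exact p = 0.114). These 3 gave 0.61, 0.35 and 0.86 in the 6-array fit and were not DEGs. None of 18 glycolysis genes was a DEG, and the one with the smallest p, Aldoc, gave a log2 fold change of 0.41.

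The hub genes that the study drew from these samples are not independent evidence of a direction. Of the 9 of its up-regulated list reported here 4 were DEGs, Arhgap35 (log2 fold change 0.60 ± 0.18, exact p = 0.0571), Rhob, Hif1a and Junb, and Met gave 0.43, below a fold change of 1.5. Exoc5 gave 0.22, Pkm 0.08, Eno1 0.00 and Mapk6 -0.05, and none of these was a DEG. Of the 10 of its down-regulated list 8 were DEGs. In the 6-array fit Rhob of the first list and 3 of the second, Irf7, Lgals3bp and Ddx58, were DEGs, and Arhgap35 gave 0.45.

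Lipid genes gave a less uniform picture. Of 43 genes of fatty acid and cholesterol synthesis 1 rose and 5 fell, with a median of 0.05. Thrsp, a regulator of lipogenesis, read 6.68, 6.69, 6.90 and 6.92 in M + LFD and 5.81, 5.96, 6.30 and 6.01 in M + HFD, with little spread in either group (log2 fold change -0.77 ± 0.15, exact p = 0.0286). Fads1, a desaturase of polyunsaturated fatty acids, read 8.09, 7.81, 8.35 and 7.62 in M + LFD and 6.32, 6.72, 7.18 and 7.28 in M + HFD (log2 fold change -1.09 ± 0.25, exact p = 0.0286). Both had groups that did not overlap and were DEGs in the 6-array fit (-0.89 and -1.11). Acacb, which makes the malonyl-CoA that restrains fat oxidation (log2 fold change -1.51 ± 0.52, exact p = 0.0857), and Me1, a source of NADPH (log2 fold change -1.67 ± 0.60, exact p = 0.0571), fell, and Acly, which supplies acetyl-CoA, rose (log2 fold change 0.64 ± 0.25, exact p = 0.0857). None of these 3 was a DEG in the 6-array fit (-0.82, -0.90 and 0.27).

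PPAR targets and fat oxidation genes had a median of -0.31, with 35 of 40 lower, 2 down-regulated and 0 up-regulated, but of -0.02 in the 6-array fit, with 21 of 40 lower and 0 DEGs. Fabp2, an intestinal fatty acid binding protein, read 15.98, 16.05, 14.55 and 13.27 in M + LFD and 10.64, 12.32, 15.15 and 12.01 in M + HFD (log2 fold change -2.43 ± 0.97, exact p = 0.0857), and -1.38 in the 6-array fit. M + LFD replicates 1 and 2 had the highest list means, 11.78 and 11.90, against 10.63 to 11.16 for the remaining 6 arrays. Mitochondrial respiratory chain genes had the same dependence, with 47 of 48 lower at a median of -0.16 in all 8 arrays and 27 of 48 at -0.03 in the 6-array fit, and none was a DEG in either. Among 12 adipocyte genes 3 fell and 0 rose. Lpl, which frees fatty acids from lipoproteins, read 10.07, 9.69, 9.01 and 8.82 in M + LFD and 7.11, 7.22, 8.63 and 8.73 in M + HFD (log2 fold change -1.47 ± 0.46, exact p = 0.0286), Cidec, of fat droplets, 10.63, 11.06, 7.91 and 9.46 in M + LFD and 6.26, 3.68, 9.08 and 7.78 in M + HFD (log2 fold change -3.06 ± 1.14, exact p = 0.0571), and Car3, a carbonic anhydrase abundant in fat, 5.09, 6.44, 7.75 and 9.32 in M + LFD and 5.49, 3.36, 4.62 and 4.93 in M + HFD (log2 fold change -2.55 ± 0.85, exact p = 0.0571). Car3, highest on M + LFD replicates 3 and 4, was the one called in the 6-array fit (-3.93, against -0.99 for Lpl and -1.98 for Cidec). Its levels on M + HFD replicates 2 and 3 lay below the lowest detected signal of those arrays, 4.95 and 4.65. Cidec was detected on 3 of the 4 M + HFD arrays. Adipoq, a defining adipocyte gene, was detected on 3 of the 8 arrays and Plin1 on 0, and the list mean lay between 8.26 and 9.17 in M + LFD and between 7.14 and 8.37 in M + HFD.

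Proliferation genes held 0 DEGs with all 8 arrays and 23 in the 6-array fit. With all 8 arrays all 32 had a lower mean in M + HFD at a median of -0.76. In the 6-array fit the median was -1.46, and all 23 DEGs were down-regulated. The list mean was 9.71, 8.85, 10.86 and 10.34 in M + LFD and 8.50, 9.98, 9.50 and 8.96 in M + HFD, so that M + LFD replicates 3 and 4 were highest and replicate 2 was among the lowest. Cenpa, of the centromere, had the smallest p with all 8 arrays (-0.88), and gave -1.43 in the 6-array fit. Rrm2, which makes deoxynucleotides, read 10.30, 9.06, 11.31 and 10.98 in M + LFD and 7.85, 10.48, 9.41 and 9.13 in M + HFD, and Kif11, a spindle motor, 7.02, 5.65, 8.11 and 7.38 in M + LFD and 5.17, 6.58, 6.68 and 5.65 in M + HFD. They went from -1.20 and -1.02 to -1.93 and -1.73.

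Of 29 Wnt pathway and stem cell genes 3 rose and 1 fell, beside 2.5% up and 1.8% down among all genes tested. Cd44, a receptor for hyaluronan and a Wnt target, read 8.85, 8.48, 8.40 and 8.03 in M + LFD and 6.77, 7.70, 7.88 and 7.15 in M + HFD, without overlap (log2 fold change -1.07 ± 0.28, exact p = 0.0286). It was a DEG in the 6-array fit (-0.84). Lgr5, the marker of crypt base stem cells, read 7.54, 6.62, 6.35 and 7.21 in M + LFD and 7.64, 7.91, 7.31 and 7.82 in M + HFD (log2 fold change 0.74 ± 0.28, exact p = 0.0571), and was up-regulated in both fits (0.89). Msi1, an RNA-binding protein of progenitors (log2 fold change 0.84 ± 0.23, exact p = 0.0571), and Smoc2, found in stem cells (log2 fold change 0.81 ± 0.34, exact p = 0.114), rose with all 8 arrays and gave 0.63 and 0.26 in the 6-array fit, where neither was a DEG. Fzd10, a Wnt receptor outside that list, read 6.03, 6.01, 5.44 and 5.07 in M + LFD and 3.28, 3.73, 5.05 and 4.29 in M + HFD. It was detected on 1 M + HFD array and was at least 2.37-fold lower in M + HFD (exact p = 0.0286), and it was a DEG in both fits. Fgfr3 was the 1 DEG of 19 growth factor receptor and ligand genes (log2 fold change 0.82 ± 0.33, exact p = 0.0571), not called in the 6-array fit (0.74), with 12.17 on M + HFD replicate 1 and 10.48 to 11.10 on the other M + HFD arrays.

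Several lists held no DEG with all 8 arrays, and the median of some depended on M + LFD replicates 1 and 2. Bile acid and cholesterol handling (13 genes) had a median of -0.21, which became 0.28 in the 6-array fit, with 11 of 13 higher and 1 up-regulated. Enteric neurons and glia (12 genes) went from -0.17 to 0.19, with 10 of 12 higher, and repair of DNA alkylation and mismatches (20 genes) from 0.01 to -0.13, with 14 of 20 lower and 1 up-regulated. Fibroblast and matrix genes (22, with Fn1 at 1.01) went from 0.33 to 0.08. The medians kept their sign for smooth muscle (16 genes, -0.04 and -0.03), squamous epithelium (7, 0.47 and 0.57, with Krt10 at 0.47), tight junctions (19, 0.04 and 0.17, with Marveld3 at 0.49), transmembrane mucins (8, 0.13 in both) and the prostaglandin pathway (13, -0.05 and -0.09, with 1 up-regulated in the 6-array fit). Krt10 and Marveld3 had groups that did not overlap, at a fold change under 1.5. Krt14, another squamous marker, read 6.44, 6.12, 6.50 and 8.78 in M + LFD and 7.31, 7.30, 9.74 and 10.96 in M + HFD. It gave a log2 fold change of 1.87 and was not a DEG. Krt13 was detected on 0 M + LFD and 2 M + HFD arrays.

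Several differences that were called with each array left out in turn lay outside the lists. Lrmda, a gene linked to melanocyte differentiation, had the smallest p of the DEGs with a symbol. It read 9.04, 8.93, 8.57 and 8.02 in M + LFD and 6.34, 6.64, 7.17 and 6.77 in M + HFD, the groups were 0.85 apart at their nearest, and the log2 fold change was -1.91 ± 0.26 (adjusted p = 0.436 by limma). Its other 2 probes gave -1.89 and -1.74, and it was called in the 6-array fit (-1.57). Bend7, a gene with a BEN domain, read 5.12, 5.65, 5.45 and 5.0 in M + LFD and 2.26, 3.16, 4.08 and 3.72 in M + HFD, detected on all 4 M + LFD arrays and on none of M + HFD, which makes it at least 2.06-fold lower in M + HFD. Grip1, a synaptic scaffold (log2 fold change -1.94 ± 0.40, exact p = 0.0286), Fam78a (log2 fold change -1.82 ± 0.42, exact p = 0.0286), Exoc3l4 (log2 fold change -1.42 ± 0.37, exact p = 0.0286) and 2210407C18Rik (log2 fold change -2.89 ± 0.73, exact p = 0.0286) fell without overlap and were down-regulated in both fits, with -1.49, -1.27, -0.80 and -1.69 in the 6-array fit, where Bend7 was also called.

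In the other direction Cphx1, a homeobox gene, read 4.81, 4.13, 5.94 and 4.77 in M + LFD and 8.66, 6.64, 5.97 and 8.02 in M + HFD (log2 fold change 2.41 ± 0.62, exact p = 0.0286). Abtb2 (log2 fold change 1.78 ± 0.40, exact p = 0.0286), Capn13, a calpain protease (log2 fold change 1.97 ± 0.54, exact p = 0.0286), Nccrp1 (log2 fold change 2.25 ± 0.73, exact p = 0.0286), Phlda2, an imprinted growth regulator (log2 fold change 1.76 ± 0.48, exact p = 0.0286), and Slc4a11, a borate and proton transporter family member (log2 fold change 1.63 ± 0.42, exact p = 0.0286), were also above M + LFD on all 4 arrays. Itih2, a hyaluronan-binding serum protein, read 2.0, 2.32, 4.17 and 6.26 in M + LFD and 7.61, 6.86, 6.14 and 6.66 in M + HFD. Detected on 1 M + LFD and 4 M + HFD arrays, it was at least 5.27-fold higher in M + HFD (exact p = 0.0571). All 7 were DEGs in both fits, with 1.97, 1.14, 0.97, 0.79, 1.25 and 1.5 for the first 6 in the 6-array fit. Abtb2, Capn13 and Nccrp1 were lower on M + LFD replicates 1 and 2 than on replicates 3 and 4, as Hoxb13 was.

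The diet effect in males was set beside that in females (F) and ovariectomized females (OVX), each measured in its own 8 arrays on its own slide, so sex and slide cannot be told apart. The male effect differed from that in females at a difference of at least 1.5-fold and an unadjusted p under 0.05 for 660 of 22365 genes (2.95%), and from that in OVX females for 1314 of 20765 (6.33%). Without M + LFD replicates 1 and 2 the numbers were 707 and 1023. At p under 0.05 alone there were 787 and 1608 genes, where evenly spread p-values would give 1118 and 1038. Limma left 0 genes at an adjusted p under 0.05 in either. Median log2 fold changes of the type I interferon list were -0.95 (males), -0.23 (females) and 0.19 (OVX females). Those of the proliferation list were -0.76, -0.27 and 0.27, those of the immediate-early list 0.36, -0.39 and -0.09, and those of the clock list 0.44, 0.01 and -0.08. Other immune lists were lower in females as well. In the same order, T and NK cell genes gave -0.56, -0.46 and -0.20, and interferon-gamma-induced GTPases -0.77, -0.48 and -0.13. MHC class I genes gave -0.52, -0.26 and -0.01. The fall was larger in females than in males for MHC class II (-0.16, -0.39 and -0.42) and antimicrobial proteins (-0.22, -0.62 and -0.26). These medians are a description, and their differences were not tested.

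Of single genes, the diet effect on Irf7 gave -1.41 among males, -0.45 among females and 0.14 among OVX females, and its differences from the male effect were not past the threshold. For Lgals3bp the effects were -1.09, -0.18 and 0.14, for Lrmda -1.91, -0.12 and -0.03, for Spink1 1.77, -0.37 and -0.57, and for Egln3 1.08, 0.13 and -0.52. These 4 genes were among both the 660 and the 1314. Thrsp, which fell in males, gave 0.05 in females and -0.97 in OVX females. Its male effect differed from the first and not detectably from the second (difference 0.20). For 3 of the 120 male DEGs named, all 4 arrays of another HFD group lay on the opposite side of their LFD group. The same count over all genes is not given here, so the 3 are examples. Junb rose by 0.66 in males and was lower on all 4 F + HFD arrays, at -0.52, and Zfp36 gave 0.67 and -0.60. Helz2 was -0.61 in males and 0.57 in OVX females, by its brighter probe. By limma the adjusted p of the differences named here was at least 0.975 against females and at least 0.529 against OVX females.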

How the data were processed

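RNA from colon, distal colon by the methods, of 24 mice was hybridized to 1-color Agilent arrays, 1 array a mouse. The deposited values are spot intensities (processed signal, background-subtracted by the scanner software) from Agilent Feature Extraction 11.0.1.1, named in the file headers, together with spot flags. The authors log2-transformed and quantile-normalized the signal and used a fold change of 1.5 with a t-test p of 0.05. From the deposited intensities, log2 values of non-control spots were quantile-normalized over the 24 arrays here, and spots with outlier flags were set to missing. Spots of a probe were averaged, and the probe brightest over the 24 arrays stood for its gene. A gene was tested if its probe was marked well above background by the software on every array of at least 1 diet group, so a gene at background in 1 diet could pass through the other. The 8 male arrays were fitted with limma 3.58.1 in R 4.3.3 with Benjamini-Hochberg adjustment, and ± gives the standard error of a log2 fold change. The contrasts with females used all 24 arrays.

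Of the 56605 probes, 58.3% were named by accession through a RefSeq table (GRCm38.p6), and the rest kept the name in the file. The 47 gene lists and the members of each were chosen with earlier results of these data known. The genes named are the 15 DEGs in each direction with a symbol, the largest change and no overlap, the 10 in each direction called in both fits, the called members of each list (at most 5), the label checks, the study's hub genes, and DEGs separated the opposite way in females. A few of these are given by count only, and other members named beside them were picked after their values were seen. Some genes are not reported here. Alternatives were the methods' t-test, other normalizations (75th percentile, male arrays alone), normexp background correction (offset 50), other filters, the mean of all probes, spots with outlier flags kept, a replicate block, and the arrays left out in turn or M + LFD replicates 1 and 2 together. The number of genes recovered was checked on simulated data for changes well above 1.5-fold, without a shift shared by arrays. Recovery at the 1.5-fold threshold was not checked.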

Additional observations from a re-analysis of the deposited data

Results flagged for a closer look

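Among the genes searched, 15 had 1 array far from the other 3 of its diet group, where chance places an array this far out in about 1 of 20 groups. Both diet groups of most genes named were searched, 147 of these genes being tested ones. Some cell type markers and other genes given for context were left out. So 15 is about the number that chance alone would give, and the cases are listed as a description. On M + HFD replicate 3, Cyp2c65 stood at 11.31 against 7.15 to 7.86 on the others, Slc37a2 at 7.85 against 9.74 to 9.85, Atp12a at 8.21 against 10.63 to 11.01, St8sia5 at 5.62 against 9.75 to 10.48, and Phf11b at 8.92 against 7.96 to 8.04. On M + LFD replicate 4, Reg3b stood at 8.0 against 13.59 to 14.09, Reg3g at 10.12 against 13.08 to 13.31, Gbp8 at 7.06 against 7.66 to 7.74 and Arhgap35 at 11.69 against 11.07 to 11.10. On M + HFD replicate 2, H2-DMa stood at 9.0 against 8.14 to 8.25 and Capn13 at 11.33 against 10.33 to 10.48. On M + HFD replicate 4, Cd3g stood at 7.91 against 7.09 to 7.16 and Zfp36 at 12.05 against 11.31 to 11.41. Ccl17 stood at 5.0 on M + LFD replicate 1 against 6.24 to 6.49, and Exoc3l4 at 7.98 on M + HFD replicate 1 against 8.79 to 8.84.

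For 3 of the genes named, the diet effect went in opposite directions in males and another group without overlap in either. They were picked because their arrays lay apart in opposite directions, so the sizes are a description and no test of the difference. The male effect exceeded that in females by 1.27 for Zfp36 and by 1.17 for Junb, and for Helz2 the male effect minus that in OVX females was -1.18. By limma none had an adjusted p under 0.05 over all genes tested. The second probe of Helz2 gave 0.02 in males.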

How the results depend on the processing

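No named DEG changed direction under any alternative, whereas medians of lists did. Without M + LFD replicates 1 and 2 the carboxylesterases went from -0.71 to 0.28, the UDP-glucuronosyl and sulfotransferases from -0.35 to 0.11, the posterior Hox genes from 1.98 to -0.23 and the B and plasma cell genes from 0.31 to -0.60, and some lists with a median near 0 changed sign elsewhere. The 882 DEGs became 489 by the methods' t-test (298 up-regulated, 191 down-regulated) and 567 with normexp (307 up-regulated), 336 were up-regulated without M + LFD replicates 1 and 2, and 579 were down-regulated with no filter on dim probes. Leaving out 1 array at a time gave 582 to 1476 DEGs, 328 to 839 up-regulated and 223 to 637 down-regulated. The DEGs on gene lists, 122 of 943 tested genes, became 62 by the methods' t-test, 80 without M + LFD replicates 1 and 2, and 70 (without M + HFD replicate 1) to 198 (without M + LFD replicate 4) with 1 array left out. The contrast with females, 660 genes, gave 1056 with no filter and 458 to 1123 with 1 male array left out, and that with OVX females, 1314 genes, gave 1034 to 1831. Limma called 2 genes at an adjusted p under 0.05 with M + LFD replicate 4 left out and 1 with M + HFD replicate 1 left out. Of 120 DEGs named, 80 were still DEGs by the t-test, 43 without M + LFD replicates 1 and 2, 105 with normexp, 117 with 75th percentile scaling and 100 where every array had to be well above background.

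Replicate number (the slide column) did not pair the males. Deviations of same-numbered arrays from their group means correlated at 0.01, -0.22, 0.06 and -0.00, and each M + LFD array correlated best with an M + HFD array of another number. With the number as a replicate block there were 960 DEGs, and the contrast with females gave 1150. Signal over background limits the lowest genes. On a male array 45.9% to 61.9% of probes were detected, and for Bend7 the HFD level has only an upper bound.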
